A study of Mus musculus with 18 samples.

Results

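The 9 genes described here, Nnt, Cox18, Pisd-ps3, Apold1, Pnp, Slc39a2, Cdhr1, Adam1a and 4930447C04Rik, were picked from 12822 kept genes because their total RNA levels in CPEB4 KO brain lay far from those of both other genotypes, and were followed into RNA with short and with long poly(A) tails. Cortex and striatum were dissected together from 6 mice aged 6 weeks: 2 WT animals, 2 CPEB4 GT/+ animals, written as heterozygous for a Cpeb4 allele named GT, and 2 CPEB4 KO animals. Each animal gave 3 arrays, 18 in all: INPUT (total RNA), WASH (RNA released from poly(U) agarose by 25% formamide, enriched for short tails) and ELUTED (RNA released by 90% formamide, enriched for long tails). The labels give neither the strain, the breeding nor the sex of the mice, and they do not spell out how the GT and KO alleles were built, so no strain difference could be tested, and strain, litter and genotype cannot be told apart. All levels are log2 values normalised across arrays by the authors with RMA, differences are differences of log2 means, and values relate to the other genes on the same array, since total RNA per cell was not measured.

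Inbred mouse lines of the same name but different breeding history carry different fixed variants, and a mutant line can keep stretches of chromosome from the cells or strain in which it was made. Nnt is a well known such gene: C57BL/6J mice carry a deletion within it that other C57BL/6 substrains lack. It encodes the transhydrogenase of the inner mitochondrial membrane, which uses the proton gradient to make NADPH for the removal of peroxides. CPEB4 itself binds elements in the 3′ ends of transcripts and changes their poly(A) tails in the cytoplasm, so a gene whose RNA differs between genotypes can do so in its total amount, in its tail length or in both, and the 3 fractions read these together.

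The targeted gene was lowest in CPEB4 KO in every fraction. The brightest Cpeb4 probe set in WASH lay at 8.73 and 8.75 in WT, 8.19 and 8.40 in CPEB4 GT/+ and 7.45 and 7.74 in CPEB4 KO, and the 3 groups did not overlap. Markers of the dissected tissue were present on every array: animal means of 5 kept cortical excitatory genes ran from 7.94 to 8.50 and those of 5 striatal projection genes from 8.89 to 9.36. The INPUT array of CPEB4 KO replicate 1 stood apart. Of 14 liver genes with a probe set, 14 were highest there among all 18 arrays, with a mean of 10.3 against 5.09 to 5.39 on the other 17 arrays, and albumin (Alb) stood at 12.08 against 5.86 to 6.86. The WASH and ELUTED arrays of the same animal, at liver list means of 5.20 and 5.31, lay within the range of the other animals. The INPUT differences of the 9 genes, and the INPUT medians of lists set beside them, are therefore given with and without that array, and no test between genotypes uses it. Both of 2 checks of RNA quality also separated CPEB4 KO from WT in some fractions. The 3′ minus 5′ difference of the Actb control probe sets ran from -0.17 to -0.06 in CPEB4 KO WASH and from -0.21 to -0.18 in WT WASH. Its INPUT values were -0.42 to -0.41 and -0.47 to -0.46. The same difference of Gapdh overlapped between CPEB4 KO (-0.07 to 0.02) and WT (-0.02 in both animals) in WASH. In INPUT it was lower in CPEB4 KO (-0.10 to -0.09) than in WT (-0.07 to -0.05) and overlapped CPEB4 GT/+ (-0.10 to -0.08). In ELUTED both controls were higher in CPEB4 KO than in WT, within the range of the CPEB4 GT/+ animals. The mean of 5 astrocyte genes lay higher in CPEB4 KO than in all other animals in INPUT (9.23 to 9.36 against at most 9.14) and WASH (9.32 to 9.34 against at most 9.28). That of 5 microglia genes did so in INPUT (8.69 to 8.77 against at most 8.62), and that of 15 endothelial genes in INPUT and WASH. For astrocyte and microglia genes the lower INPUT value is that of CPEB4 KO replicate 2. The part of RNA quality and of these cell types in the results was not tested.

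**Figure D1:**
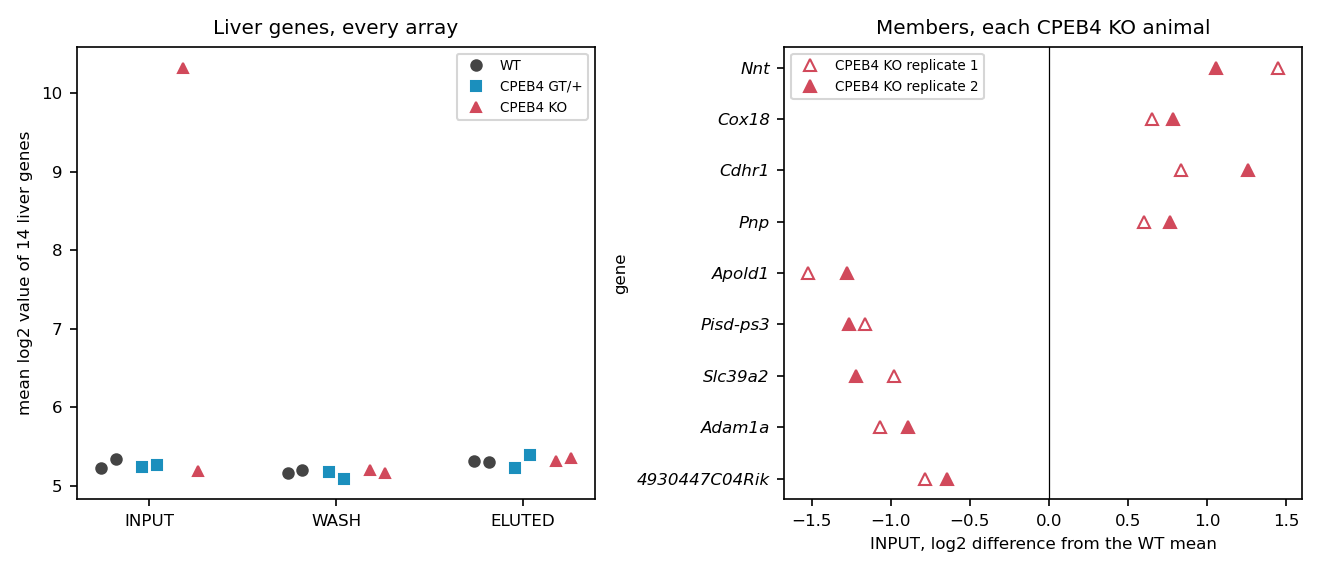
Left: mean log2 value of 14 liver genes on each of the 18 arrays, by fraction and genotype (1 point per array). Right: log2 difference of each CPEB4 KO animal's INPUT array from the WT mean, for the 9 genes. A single array, INPUT of CPEB4 KO replicate 1, lies at 10.3, while both CPEB4 KO animals differ from WT in the same direction in each of the 9 genes.

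In INPUT, the fraction that served to choose them, 4 genes had higher levels in CPEB4 KO than in both other genotypes (Nnt, Cdhr1, Cox18 and Pnp) and 5 had lower ones (Apold1, Pisd-ps3, Slc39a2, Adam1a and 4930447C04Rik). These values are a description without a test. Both CPEB4 KO animals lay outside the other 4 animals in all 9 genes, which was so for 23.0% of the 12822 genes (13.8% higher and 9.24% lower). With both differences at least 0.58 in size this held for 73 genes, 0.569% of those kept (0.507% higher and 0.0624% lower). The 9 were not the 9 largest such differences. Ranked by the smaller of the differences from WT and from CPEB4 GT/+, they took ranks 9 (Apold1), 11 (Pisd-ps3), 12 (Nnt), 17 (Slc39a2), 19 (Cdhr1), 44 (4930447C04Rik), 49 (Pnp), 51 (Adam1a) and 63 (Cox18), and 54 other genes stood among them, led by Acaa1b, a gene of peroxisomal fat oxidation abundant in liver, at 3.20. Without the array that carries liver transcripts, CPEB4 KO replicate 2 lay outside the other 4 animals in all 9 genes and in 54.5% of all genes, 53 genes had both differences at that size, 8 of the 9 among them, and the ranks became 2 (Pisd-ps3), 3 (Cdhr1), 4 (Slc39a2), 5 (Apold1), 8 (Nnt), 13 (Pnp), 19 (Cox18), 29 (4930447C04Rik) and 54 (Adam1a). CPEB4 KO replicate 2 alone differed from the WT mean by between -1.28 (Apold1) and -0.64 (4930447C04Rik) in the 5 lower genes and by between 0.76 (Pnp) and 1.26 (Cdhr1) in the 4 higher ones. At the edge of the range, Cox18 lay just inside with a smaller difference of 0.62, and Tcn2, Sema4g and Rida just outside with 0.62, 0.62 and 0.60. Only 8 of the 73 genes were lower in CPEB4 KO, and 5 of these were among the 9, beside Ccl21b, Ccn1 and Gm2824.

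The 3 genes whose CPEB4 KO level stayed apart by this size in every fraction were Apold1 and Pisd-ps3, both lower, and Cdhr1, higher. Each kept both CPEB4 KO animals outside the other 4 and a difference of at least 0.58 from both genotypes in INPUT, WASH and ELUTED. None of the other 64 genes with that pattern in INPUT had it in all 3 fractions, nor did any of the 45 others when CPEB4 KO replicate 2 alone stood for INPUT. Of the 64, 2 kept it in WASH, Ccl21b and Gm2824, both lower, and 0 kept it in ELUTED. The fractions come from the same 6 animals, so they repeat the measurement on other RNA preparations, not on other mice.

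**Figure D2:**
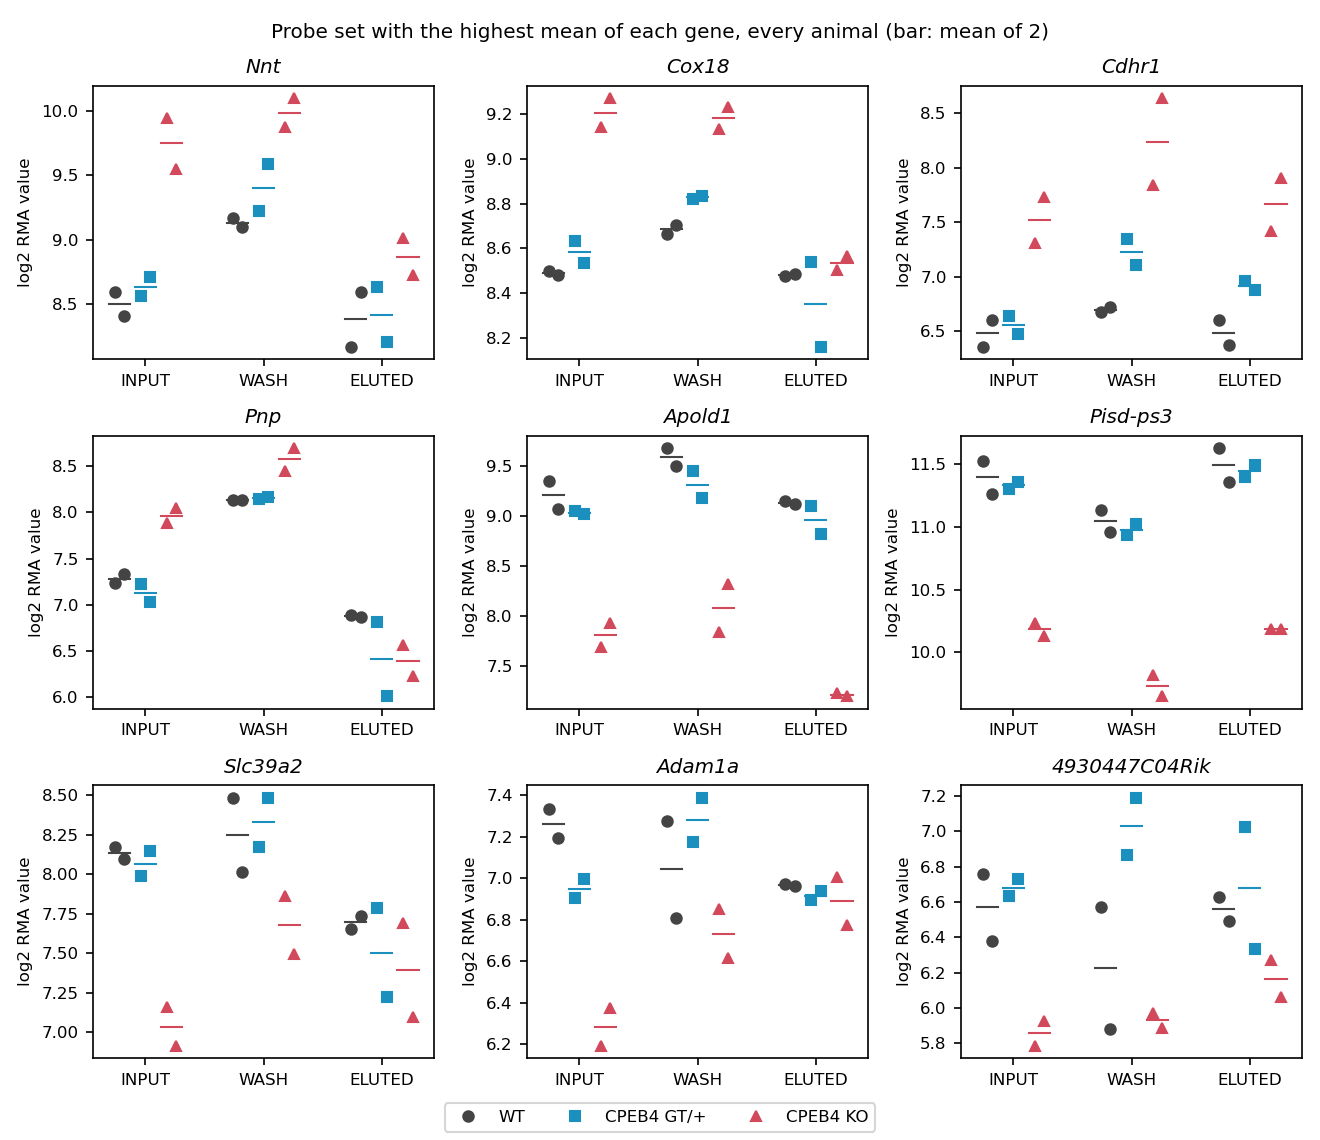
Log2 RMA value of each gene (probe set with the highest mean) in every animal, by fraction and genotype, with points for animals and bars for the mean of 2 animals. Nnt, Apold1, Pisd-ps3 and Cdhr1 have both CPEB4 KO animals outside the other 4 in all 3 fractions, while Pnp is above WT in INPUT and WASH and below it in ELUTED.

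Apold1 encodes an apolipoprotein L domain protein of endothelial cells whose transcript is induced by activity and injury. Apold1 levels in INPUT were 9.35 and 9.07 in WT, 9.05 and 9.02 in CPEB4 GT/+ and 7.69 and 7.93 in CPEB4 KO. WASH levels of Apold1 were 9.68 and 9.51, 9.45 and 9.18, and 7.84 and 8.32 in the same order. In ELUTED they were 9.15 and 9.12, 9.10 and 8.82, and 7.22 and 7.19. The CPEB4 KO animals were lowest in each fraction without overlap, and both CPEB4 GT/+ animals also lay below both WT animals in each, a difference that was not tested. Apold1 fell by 1.52 on the log2 scale in WASH against WT (SE 0.16, limma adjusted p = 0.00837) and by 1.24 against CPEB4 GT/+ (adjusted p = 0.0460), and it fell by 1.92 in ELUTED against WT (SE 0.15, adjusted p = 0.0265). Against CPEB4 GT/+ in ELUTED the difference of -1.75 did not pass (adjusted p = 0.0522), although it passed without CPEB4 GT/+ replicate 1 (0.0412) or 2 (0.0132) and under 3 other settings. These calls rest on few animals. Without CPEB4 KO replicate 1 the WASH differences were -1.27 (adjusted p = 0.0650) and -0.99 (adjusted p = 0.191), without CPEB4 KO replicate 2 that against CPEB4 GT/+ was -1.48 (adjusted p = 0.104), and without CPEB4 GT/+ replicate 1 or 2 it was -1.10 (adjusted p = 0.157) or -1.37 (adjusted p = 0.0978). The ELUTED call against WT was lost without either WT animal or either CPEB4 KO animal, at differences of -1.94 to -1.91.

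Klf2, a transcription factor of endothelial and other cells that is in none of the lists, was called lower in WASH against WT (-0.90, SE 0.11, limma adjusted p = 0.0146). Of 15 kept endothelial markers, 0 rose and 0 fell in WASH or in ELUTED against WT by the limma test, and their median differences were 0.13 in INPUT (0.09 without CPEB4 KO replicate 1), 0.09 in WASH and -0.02 in ELUTED, against medians of 0.03 (0.06), 0.03 and -0.01 over all genes. The endothelial list mean lay higher in CPEB4 KO than in all other animals in INPUT (7.54 to 7.63 against at most 7.48) and WASH (7.92 to 7.93 against at most 7.84). The INPUT range includes the array that carries liver transcripts. In ELUTED the means overlapped, at 7.33 to 7.45 in CPEB4 KO and 7.41 to 7.48 in WT. In bulk tissue, fewer cells of a type and less RNA per cell cannot be told apart. Of 12 activity-induced genes, 0 passed in either direction in WASH or ELUTED, with median differences of -0.07 and -0.05.

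Pisd-ps3 is a transcribed pseudogene of Pisd, the mitochondrial phosphatidylserine decarboxylase that makes phosphatidylethanolamine. INPUT levels of Pisd-ps3 were 11.53 and 11.26 in WT, 11.30 and 11.36 in CPEB4 GT/+ and 10.23 and 10.13 in CPEB4 KO. Pisd-ps3 in WASH lay at 11.14 and 10.96, 10.93 and 11.02, and 9.82 and 9.65. Pisd-ps3 in ELUTED lay at 11.63 and 11.36, 11.40 and 11.50, and 10.18 and 10.18. WT and CPEB4 GT/+ overlapped in every fraction, and CPEB4 KO lay more than 1 log2 unit lower. Pisd-ps3 fell by 1.32 in WASH against WT (SE 0.11, limma adjusted p = 0.00233), the smallest p of all genes there, and by 1.25 against CPEB4 GT/+ (adjusted p = 0.00410). In ELUTED the differences of -1.31 and -1.27 did not pass (adjusted p = 0.204 and 0.261). Leaving out CPEB4 GT/+ replicate 1 or 2 gives the same fit of CPEB4 KO against WT, since a lone animal adds no spread. In that fit the ELUTED difference against WT, still -1.31, passed. Without CPEB4 GT/+ replicate 2 that against CPEB4 GT/+ passed too (-1.22). The WASH call against WT held without each of the 6 animals in turn, while that against CPEB4 GT/+ was lost without CPEB4 GT/+ replicate 2 (-1.20, adjusted p = 0.0792) and without CPEB4 KO replicate 2 (-1.16, adjusted p = 0.105).

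The array holds several probe sets for this pseudogene family, and they did not move alike. Of 18 probe sets annotated to the 9 genes, 15 name 1 gene and 3 are shared between Pisd-ps1 and Pisd-ps3. The 3 probe sets of Pisd-ps3 alone differed between CPEB4 KO and WT by -0.92 to -1.50 in WASH and by -1.16 to -1.88 in ELUTED. The 3 shared ones differed by only -0.06 to -0.32 in WASH and by -0.20 to -0.46 in ELUTED. Among the 3 probe sets of the parent gene Pisd, differences ran from 0.03 to 0.14 in WASH and from -0.21 to -0.07 in ELUTED. In a fit over all 20765 probe sets above the filter, 2 of the 3 probe sets of Pisd-ps3 alone fell in WASH against WT (adjusted p = 0.00405 and 0.00723) and the remaining one did not pass (adjusted p = 0.151). Signals of near-identical copies cannot be separated where probes match more than 1 of them, and the probe sequences were not used here.

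**Figure D3:**
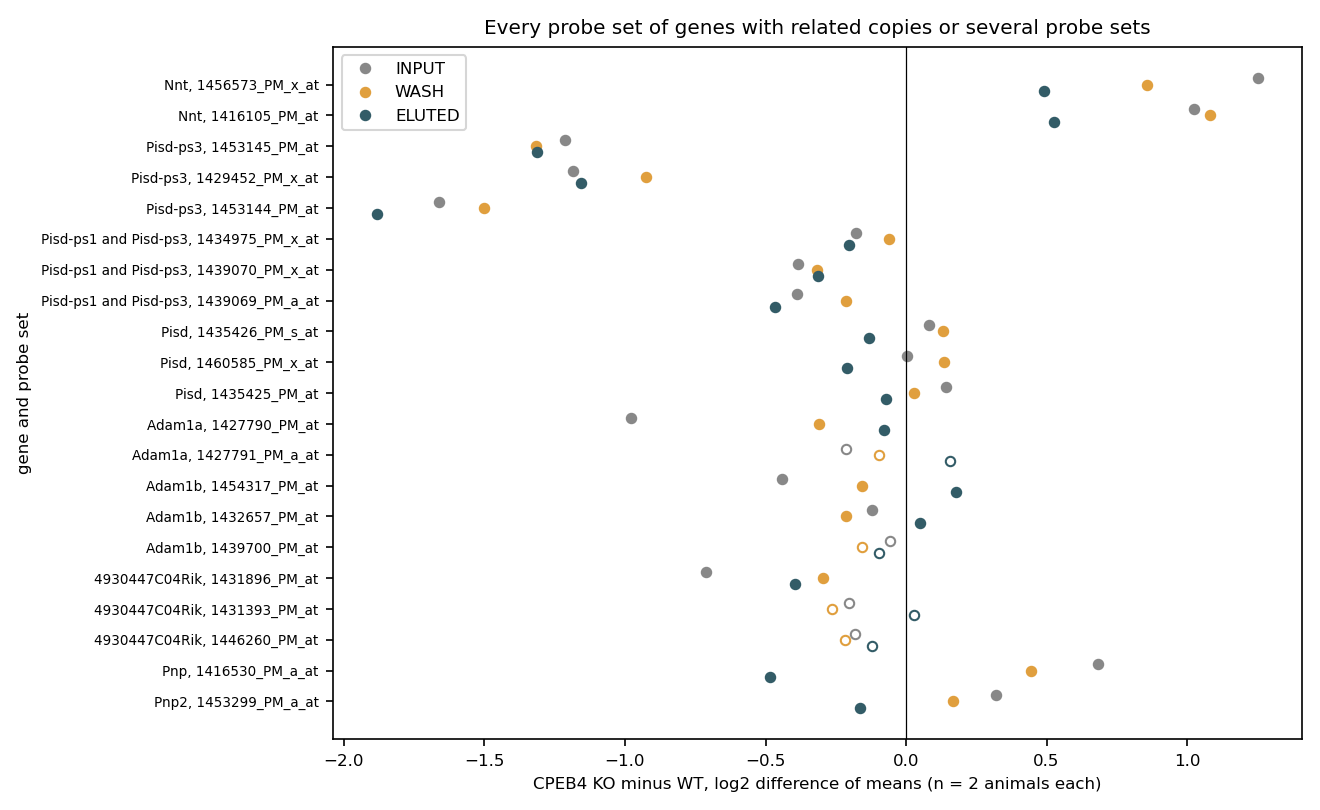
CPEB4 KO minus WT difference of log2 means (n = 2 animals each) for every probe set of genes that have several probe sets or a near copy, by fraction (open points: probe sets under the filter on low values). The 3 probe sets of Pisd-ps3 alone lie at -0.92 or lower, and those shared with Pisd-ps1 and those of Pisd lie between -0.46 and 0.14.

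Cdhr1 encodes a cadherin-related protein known from photoreceptor outer segments and from mitral and tufted cells of the olfactory bulb. Cdhr1 levels in INPUT were 6.36 and 6.60 in WT, 6.64 and 6.48 in CPEB4 GT/+ and 7.31 and 7.74 in CPEB4 KO. WASH levels of Cdhr1 were 6.67 and 6.72, 7.35 and 7.11, and 7.84 and 8.64. In ELUTED, Cdhr1 stood at 6.60 and 6.38, 6.96 and 6.88, and 7.42 and 7.91. CPEB4 KO was highest in each fraction, and in WASH and ELUTED both CPEB4 GT/+ animals lay between WT and CPEB4 KO. Cdhr1 rose by 1.54 in WASH against WT (SE 0.20, limma adjusted p = 0.0274), and the other differences, 1.01 against CPEB4 GT/+ in WASH and 1.18 and 0.75 in ELUTED, did not pass (adjusted p = 0.283, 0.837 and 0.998). The WASH call was lost without WT replicate 1 (adjusted p = 0.0957), WT replicate 2 (0.0578) or CPEB4 KO replicate 2 (1.14, adjusted p = 0.0846), and also with no filter on low genes or with the mean of a gene's probe sets. Conversely, the WASH difference against CPEB4 GT/+ passed without CPEB4 KO replicate 1 (1.41). That in ELUTED against WT passed without CPEB4 GT/+ replicate 1 or 2, which give the same fit.

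Genes of the olfactory bulb, which borders the dissected tissue, were measured beside it. Of 6 kept olfactory bulb genes, 0 passed in WASH or ELUTED, and their median differences against WT were 0.22 in INPUT (0.35 without CPEB4 KO replicate 1), 0.10 in WASH and 0.07 in ELUTED. The 6 differences ran from -0.28 to 0.33 in INPUT, from -0.25 (Th) to 0.70 (Eomes) in WASH and from -0.60 (Slc17a6) to 0.38 (Doc2g) in ELUTED. Doc2g and Eomes, like Cdhr1, mark mitral and tufted cells. Doc2g differed by 0.33 in INPUT (0.57 without CPEB4 KO replicate 1), 0.49 in WASH and 0.38 in ELUTED. Eomes differed by 0.28 (0.47), 0.70 and 0.15 in the same order, and neither gene passed. The list mean per animal ran from 7.86 to 8.38 in CPEB4 KO WASH and from 7.69 to 8.19 in WT WASH, so the groups overlapped, and Tbx21 and Lhx1 were not among the kept genes. Its part in the Cdhr1 difference was not tested. The 3 kept photoreceptor genes gave 0 calls, with medians of -0.01 in INPUT (0.03 without CPEB4 KO replicate 1), -0.05 in WASH and 0.16 in ELUTED.

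Nnt and Cox18 act in the inner mitochondrial membrane, the first as described above and the second as an insertase that places a subunit of cytochrome c oxidase there. Nnt levels in INPUT were 8.59 and 8.40 in WT, 8.56 and 8.71 in CPEB4 GT/+ and 9.95 and 9.55 in CPEB4 KO. WASH levels of Nnt were 9.17 and 9.10, 9.22 and 9.59, and 9.88 and 10.10. In ELUTED, Nnt stood at 8.17 and 8.59, 8.63 and 8.20, and 9.01 and 8.72. Both CPEB4 KO animals lay above the other 4 in every fraction, by a gap that was smallest in ELUTED. The Nnt difference against WT was 0.86 in WASH (SE 0.14, limma adjusted p = 0.0876) and 0.49 in ELUTED (SE 0.22, adjusted p = 0.847), and against CPEB4 GT/+ it was 0.58 and 0.45 (adjusted p = 0.535 and 0.998), so none passed. It passed in WASH against WT without either CPEB4 GT/+ animal, which is the same fit for both. It also passed there with quantile normalisation (adjusted p = 0.0298), a trended prior (0.00481) or arrays aligned on hybridisation controls. At the other probe set of Nnt, in the fit over 20765 probe sets, Nnt rose by 1.08 in WASH against WT (SE 0.13, adjusted p = 0.0150). Nnt was not at the level of undetected genes in any group: the lowest values of its 2 probe sets, 8.17 and 7.22, lay well above the filter at 5.52, and which exons the probes lie in was not known here.

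Cox18 levels in INPUT were 8.50 and 8.48 in WT, 8.63 and 8.54 in CPEB4 GT/+ and 9.14 and 9.27 in CPEB4 KO. WASH levels of Cox18 were 8.66 and 8.70, 8.82 and 8.84, and 9.13 and 9.23. In ELUTED, Cox18 stood at 8.48 and 8.48, 8.54 and 8.16, and 8.50 and 8.57. The 3 groups were in the same order without overlap in INPUT and WASH, whereas in ELUTED CPEB4 KO overlapped CPEB4 GT/+. None of these differences passed: 0.50 (SE 0.10, limma adjusted p = 0.259) and 0.35 (adjusted p = 0.707) in WASH, and 0.05 in ELUTED against WT, with a 95% interval of -0.33 to 0.43. Of 12 further genes of mitochondrial NADPH supply and peroxide removal, 0 passed in WASH or ELUTED, with medians of 0.08 and -0.08 against WT. In INPUT the mean of these 12 genes, without Nnt, was 9.51 on the CPEB4 KO array that carries liver transcripts and 9.42 in CPEB4 KO replicate 2. It was 9.30 to 9.33 in WT and 9.36 to 9.41 in CPEB4 GT/+, just below CPEB4 KO replicate 2. Their median INPUT difference against WT was 0.08 (0.07 without CPEB4 KO replicate 1), beside 0.03 (0.06) over all genes. In WASH the mean ran from 9.57 to 9.68 in CPEB4 KO and from 9.55 to 9.59 in WT. Of 14 other assembly factors of cytochrome c oxidase, 0 passed, with medians of 0.03 and -0.27.

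Pnp and Slc39a2 lie close together on chromosome 14 (RefSeq, GRCm38.p6), with 3 kept genes between them, and differed in opposite directions. Pnp encodes purine nucleoside phosphorylase of the purine salvage pathway. Pnp levels in INPUT were 7.24 and 7.33 in WT, 7.23 and 7.02 in CPEB4 GT/+ and 7.89 and 8.05 in CPEB4 KO. WASH levels of Pnp were 8.13 and 8.13, 8.14 and 8.17, and 8.45 and 8.70. In ELUTED, Pnp stood at 6.89 and 6.87, 6.82 and 6.01, and 6.56 and 6.22. CPEB4 KO was above both genotypes in INPUT and WASH, and in ELUTED it was below WT and overlapped CPEB4 GT/+, whose 2 animals were far apart. The Pnp difference against WT was 0.44 in WASH (SE 0.11, limma adjusted p = 0.567) and -0.48 in ELUTED (95% interval -1.09 to 0.12, adjusted p = 0.894). Pnp2, the neighbouring near copy, differed by 0.32 in INPUT (0.39 without CPEB4 KO replicate 1), 0.17 in WASH and -0.16 in ELUTED. None of 13 other genes of purine salvage passed in WASH or ELUTED, with medians of 0.04 and -0.09.

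Slc39a2 encodes a zinc importer of the ZIP family. Slc39a2 levels in INPUT were 8.17 and 8.10 in WT, 7.99 and 8.14 in CPEB4 GT/+ and 7.16 and 6.91 in CPEB4 KO. WASH levels of Slc39a2 were 8.48 and 8.01, 8.17 and 8.48, and 7.86 and 7.49. In ELUTED, Slc39a2 stood at 7.65 and 7.74, 7.78 and 7.22, and 7.69 and 7.10. The gap between CPEB4 KO and the other animals was widest in INPUT, small in WASH and absent in ELUTED, where all groups overlapped. Neither WASH difference passed (-0.57 against WT, SE 0.17, limma adjusted p = 0.705, and -0.65 against CPEB4 GT/+, adjusted p = 0.684), and in ELUTED the difference from WT was -0.30 with a 95% interval of -0.88 to 0.28. Among 21 other zinc transporters 0 passed in WASH or ELUTED, with medians of 0.05 and -0.10 against WT.

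Adam1a, a membrane-anchored protease of the ADAM family best known from sperm, behaved much like Slc39a2. Adam1a levels in INPUT were 7.33 and 7.19 in WT, 6.91 and 6.99 in CPEB4 GT/+ and 6.19 and 6.37 in CPEB4 KO. WASH levels of Adam1a were 7.28 and 6.81, 7.17 and 7.39, and 6.85 and 6.62. In ELUTED, Adam1a stood at 6.97 and 6.96, 6.89 and 6.94, and 7.00 and 6.77. The 3 genotypes formed separate steps in INPUT, and in ELUTED all 6 values lay within the spread of the 2 CPEB4 KO animals. The difference from WT was -0.31 in WASH (SE 0.16, limma adjusted p = 0.870) and -0.08 in ELUTED (95% interval -0.41 to 0.26). The second probe set of Adam1a was under the filter and differed by -0.21 in INPUT. Adam1b, the neighbouring related gene, differed by -0.44 in INPUT (-0.41 without CPEB4 KO replicate 1), -0.16 in WASH and 0.18 in ELUTED, and 12 other ADAM genes, Adam1b among them, gave 0 calls.

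The gene listed as 4930447C04Rik, later named Six6os1, encodes a component of the synaptonemal complex of meiotic chromosomes. INPUT levels of 4930447C04Rik were 6.76 and 6.38 in WT, 6.63 and 6.73 in CPEB4 GT/+ and 5.79 and 5.93 in CPEB4 KO. WASH levels of 4930447C04Rik were 6.57 and 5.88, 6.86 and 7.19, and 5.97 and 5.89. In ELUTED, it stood at 6.63 and 6.49, 7.02 and 6.33, and 6.27 and 6.06. In WASH the WT animals differed from each other by more than CPEB4 KO differed from their mean, and CPEB4 GT/+ was highest. The difference was -0.29 against WT (SE 0.19, limma adjusted p = 0.892) and -1.10 against CPEB4 GT/+ (SE 0.19, adjusted p = 0.146) in WASH, and -0.39 and -0.51 in ELUTED, none of which passed. The WASH difference against CPEB4 GT/+ passed without either WT animal, which is the same fit for both. It also passed with a trended prior (adjusted p = 0.0228) and with alignment on hybridisation controls (0.000262). Its 2 other probe sets were under the filter, and 2 kept synaptonemal complex genes gave 0 calls.

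**Figure D4:**
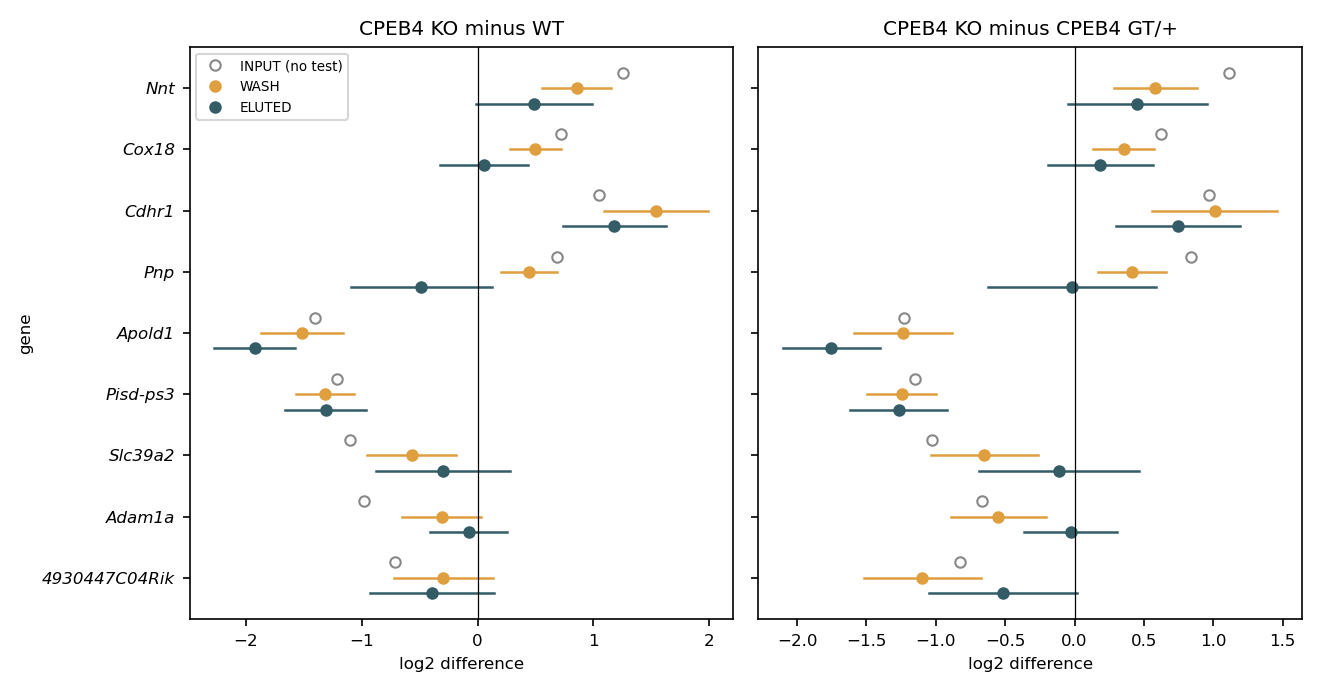
CPEB4 KO minus WT (left) and minus CPEB4 GT/+ (right) for the 9 genes, as log2 differences, with open points for INPUT, which chose the genes and was not tested, and filled points with 95% intervals from limma, not adjusted for the number of genes, for WASH and ELUTED. The intervals of Apold1, Pisd-ps3 and Cdhr1 exclude 0 in both fractions, while those of the other 6 genes include 0 in ELUTED.

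Counted over the 9 genes, both CPEB4 KO animals lay outside the other 4 in 7 genes in WASH, beside 13.9% of all genes: 4 were higher (8.59% of all genes) and 3 lower (5.32%). In ELUTED they did so in 5, beside 15.5%: 2 were higher (7.13%) and 3 lower (8.35%). With differences of at least 0.58 this held in WASH for 4 genes (0.125%), 2 higher (0.039%) and 2 lower (0.0858%), and in ELUTED for 3 (0.842%), 1 higher (0.117%) and 2 lower (0.725%). Against WT in WASH, 3 of the 9 were called, Pisd-ps3 and Apold1 lower (0.0312% of all genes) and Cdhr1 higher (0.0156%), and 6 of 12822 genes were called in all (0.0468%), the others being Cpeb4, Klf2 and Matn2. Against CPEB4 GT/+ in WASH, 2 were called, Pisd-ps3 and Apold1, of 3 genes in all (0.0234%), the other being Gm2824. ELUTED gave 1 call against WT, Apold1, the sole gene called there (0.0078%). Against CPEB4 GT/+ it gave 0 of 12822 with limma (475 genes had an unadjusted p under 0.05). With the mean of WASH and ELUTED per animal, Apold1 and Pisd-ps3 differed from WT by -1.72 and -1.32 (adjusted p = 0.00168 and 0.00193), 2 of 3 called genes (0.0234%). From CPEB4 GT/+ they differed by -1.49 and -1.26 (adjusted p = 0.00341 for both), 2 of 5 called genes (0.039%, and 0.0312% lower). The calls on this mean against CPEB4 GT/+ were both lost without CPEB4 KO replicate 1 (adjusted p = 0.0809 for both) or 2 (0.0868 and 0.183). Against WT both were lost without WT replicate 1 (adjusted p = 0.0719 for both), and Pisd-ps3 also without CPEB4 KO replicate 1 (0.0564) or 2 (0.0878). Nnt (0.67) and Cdhr1 (1.36) passed on this mean against WT without CPEB4 GT/+ replicate 1 or 2, which give the same fit. Cdhr1 also passed without CPEB4 KO replicate 1 (1.68). Since the genes were picked from INPUT of these animals, the counts describe how their differences carried over to the other fractions.

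ELUTED over WASH, the difference of an animal's log2 levels in long-tailed and short-tailed RNA, differed from 0 across the 6 animals in 7 of the 9 genes, against 73.4% of all genes, so the share is close to the background. Of the 7, 6 were lower in ELUTED, against 48.5% of all genes, and 1 was higher, against 24.9%. Pnp had the largest value. Its ratio was -1.25 and -1.26 in WT, -1.33 and -2.16 in CPEB4 GT/+ and -1.89 and -2.47 in CPEB4 KO, and the mean was -1.73 (SE 0.12, limma adjusted p = 5.15e-05), where the median gene lay at -0.18. Nnt followed with -0.96 (SE 0.13, adjusted p = 0.000295). Apold1 (-0.56), Slc39a2 (-0.55), Cox18 (-0.44) and Cdhr1 (-0.36) were also lower, although with arrays centred on their medians Slc39a2, Cox18 and Cdhr1 were no longer called, and with INPUT in place of WASH Cdhr1 turned to 0.17. Pisd-ps3 was higher in ELUTED by 0.46 (SE 0.07, adjusted p = 0.000614) at the probe set with the highest mean, with values from 0.37 to 0.54 in the 6 animals. This was not so for its other probe sets, at 0.16 and 0.17, which did not pass, and it was 0.07 and not called with INPUT in place of WASH (adjusted p = 0.376) and -0.03 when arrays were aligned on hybridisation controls. Adam1a (-0.10) and 4930447C04Rik (0.07) did not pass. Both were called as higher on median-centred arrays, Adam1a at 0.26 and 4930447C04Rik at 0.43 (limma adjusted p = 0.0178 and 0.00820). With arrays aligned on hybridisation controls Adam1a was called as lower, at -0.58 (adjusted p = 0.00658), and 4930447C04Rik was at -0.41 and not called, so their direction depends on the scaling.

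Genes of the same pathways also lay mostly lower in ELUTED, a split that depends on the scaling: of all genes, 48.5% were lower and 24.9% higher, and on median-centred arrays 26.1% were lower and 48.4% higher. In purine salvage, 9 of 13 genes other than Pnp were lower and 2 higher, among them Aprt at -1.43 (SE 0.13) and Nt5c3 at -1.15 (SE 0.12), and on median-centred arrays 8 were lower and 4 higher. Among 12 genes of mitochondrial NADPH supply and peroxide removal, 8 were lower and 0 higher, including the peroxide-removing enzymes Prdx3 (-1.22, SE 0.09) and Gpx1 (-1.18, SE 0.11), and median centring gave 6 lower and 3 higher. Of 14 assembly factors of cytochrome c oxidase, 10 were lower, with Pet100 at -1.88 (SE 0.25), and 1 higher, Cox16 at 1.46 (SE 0.08), and centring gave 8 lower and 4 higher. Zinc transporters gave 13 lower, such as Slc30a5 at -1.24 and Slc30a4 at -1.18, and 4 higher of 21 (9 and 8 after centring), and of 7 enzymes around phosphatidylethanolamine 6 were lower, led by Cept1 at -1.44 and Ptdss2 at -0.81 (2 lower and 1 higher after centring). Median differences were -0.68, -0.56, -0.89, -0.40 and -0.40 in the order of these 5 lists, against -0.18 over all genes. On median-centred arrays they were -0.32, -0.21, -0.54, -0.04 and -0.05, against 0.17 over all genes.

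No genotype difference of the ELUTED over WASH ratio passed for any of the 9 genes: limma called 0 of 12822 genes in CPEB4 KO against WT (791 had an unadjusted p under 0.05) and 0 against CPEB4 GT/+ (237). The power was low here, since in simulated data of 12822 genes this comparison recovered 24% of genes changed by 1 log2 unit and 80% of those changed by 2, whereas WASH against WT recovered 89% and 98%. The simulation changed 100 genes at each size, while the data gave 6 calls in WASH against WT. The adjustment is stricter where fewer genes differ, so these shares can overstate the power in the data. Against WT, the difference farthest from 0 was that of Pnp, -0.93 (95% interval -1.62 to -0.23, unadjusted p = 0.0149, adjusted p = 0.756), followed by Cox18 at -0.44 (95% interval -0.89 to -0.00, adjusted p = 0.756) and Apold1 at -0.41 (95% interval -0.90 to 0.08). For Pisd-ps3 it was 0.01 with an interval of -0.39 to 0.40. For Slc39a2, Adam1a and Nnt it was 0.27 (-0.44 to 0.98), 0.23 (-0.24 to 0.71) and -0.37 (-1.08 to 0.35). Against CPEB4 GT/+, those farthest from 0 were 4930447C04Rik at 0.59 (-0.18 to 1.35), Slc39a2 at 0.54 (-0.17 to 1.25), Adam1a at 0.52 (0.05 to 0.99, unadjusted p = 0.0342) and Apold1 at -0.52 (unadjusted p = 0.0403), and none passed the adjustment.

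Likeness was measured by correlation across the 18 arrays, with the mean of each fraction removed. Genes picked for a CPEB4 KO difference correlate in part because of that choice, and the arrays share animals and include the INPUT arrays that chose them, so the values are a description, given also over the 12 WASH and ELUTED arrays. Pisd-ps3 was most like Apold1 (Pearson r = 0.96 over both sets of arrays), and after it like Klf4 (0.90, and 0.92 without INPUT) and Ccn1 (0.89 in both), a transcription factor and a secreted matrix protein that respond to stimulation. Apold1 in turn was like Ccn1 (0.89, and 0.90 without INPUT) and Cpeb4 (0.89 and 0.91). Slc39a2 was most like Adam1a (0.89, and 0.84 without INPUT) and C2cd5 (0.88 and 0.89), and C2cd5 was also among the 3 most like Adam1a (0.83 and 0.82). Nnt and Cox18 were second to each other (0.90, and 0.84 without INPUT), behind Zfp36l1 (0.91 and 0.85) for Nnt and Ccnd1 (0.90 and 0.89) for Cox18. Cdhr1 was most like Pdgfb (0.90 and 0.94), Pnp like Rhog (0.92 and 0.87) and 4930447C04Rik like Zfp939 (0.89 and 0.91). Ccn1 itself differed between CPEB4 KO and WT by -0.74 in INPUT (-0.73 without CPEB4 KO replicate 1), -0.70 in WASH and -0.72 in ELUTED, and Klf4 by -0.45 (-0.42), -0.83 and -0.80, with CPEB4 KO outside both genotypes each time and no call in WASH or ELUTED.

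The positions of the 9 genes were read from RefSeq gene order (GRCm38.p6, used for names and order only). Slc39a2, Pnp and Cdhr1 are on chromosome 14, Adam1a and Cox18 on 5, Nnt on 13, Apold1 on 6 and 4930447C04Rik on 12, and Pisd-ps3 has no assigned chromosome. Cpeb4 is on chromosome 11, so none of the 8 placed genes shares its chromosome. Up to 10 kept genes on each side of the 8 were examined, 142 different neighbours. Their median CPEB4 KO minus WT difference was -0.00 in INPUT, 0.02 in WASH and -0.01 in ELUTED, and CPEB4 KO lay outside the other 4 animals in 21.8%, 16.2% and 16.2% of them, beside 23.0%, 13.9% and 15.5% of all genes. With CPEB4 KO replicate 2 alone in INPUT, the median was 0.02 and 57.7% lay outside, beside 54.5% of all genes. The share was not even along the genome. Around Slc39a2, 9 of 20 neighbours lay outside in INPUT, 9 in WASH and 4 in ELUTED. Around Pnp, whose neighbours are largely the same, 8, 8 and 3 of 20 did. The INPUT and WASH counts around each of these 2 genes include the other one, and the ELUTED counts do not. Around the other placed genes the counts were 2 to 7, 1 to 4 and 2 to 4. The cause was not tested. A difference of at least 0.58 from WT was seen in 4 of the 142 neighbours in INPUT, 1 in WASH and 3 in ELUTED. The share of all genes at that distance from WT alone was not counted. These counts, and those around Cpeb4 below, can therefore not be called high or low. In INPUT these were Alb near Cox18 (2.86), Rnase4 (1.34) and Ang (1.04) between Pnp and Slc39a2, and Rhoj near 4930447C04Rik (0.63). Of these, Ang stood at 7.99 in CPEB4 KO replicate 1 and 5.18 in replicate 2, and Rnase4 at 9.25 and 7.47 against 6.91 to 7.10 in the other 4 animals, so the larger part came with the array that carries liver transcripts. Without it, 3 neighbours differed by at least 0.58 in INPUT, Brap and Naa25 near Adam1a and Ttc5 near Pnp and Slc39a2, and Rhoj differed by 0.57. Rhoj was the neighbour with that difference in WASH (0.69), and Apex1 (-0.78), Rpl6 (-0.62) and Ndufs4 (-0.61) were those in ELUTED. Of the 20 neighbours of Cpeb4, 0 in INPUT, 0 in WASH and 3 in ELUTED differed by that much, Snrnp25 (-1.17), Acyp2 (-0.83) and Hba-a1 (-0.74).

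**Figure D5:**
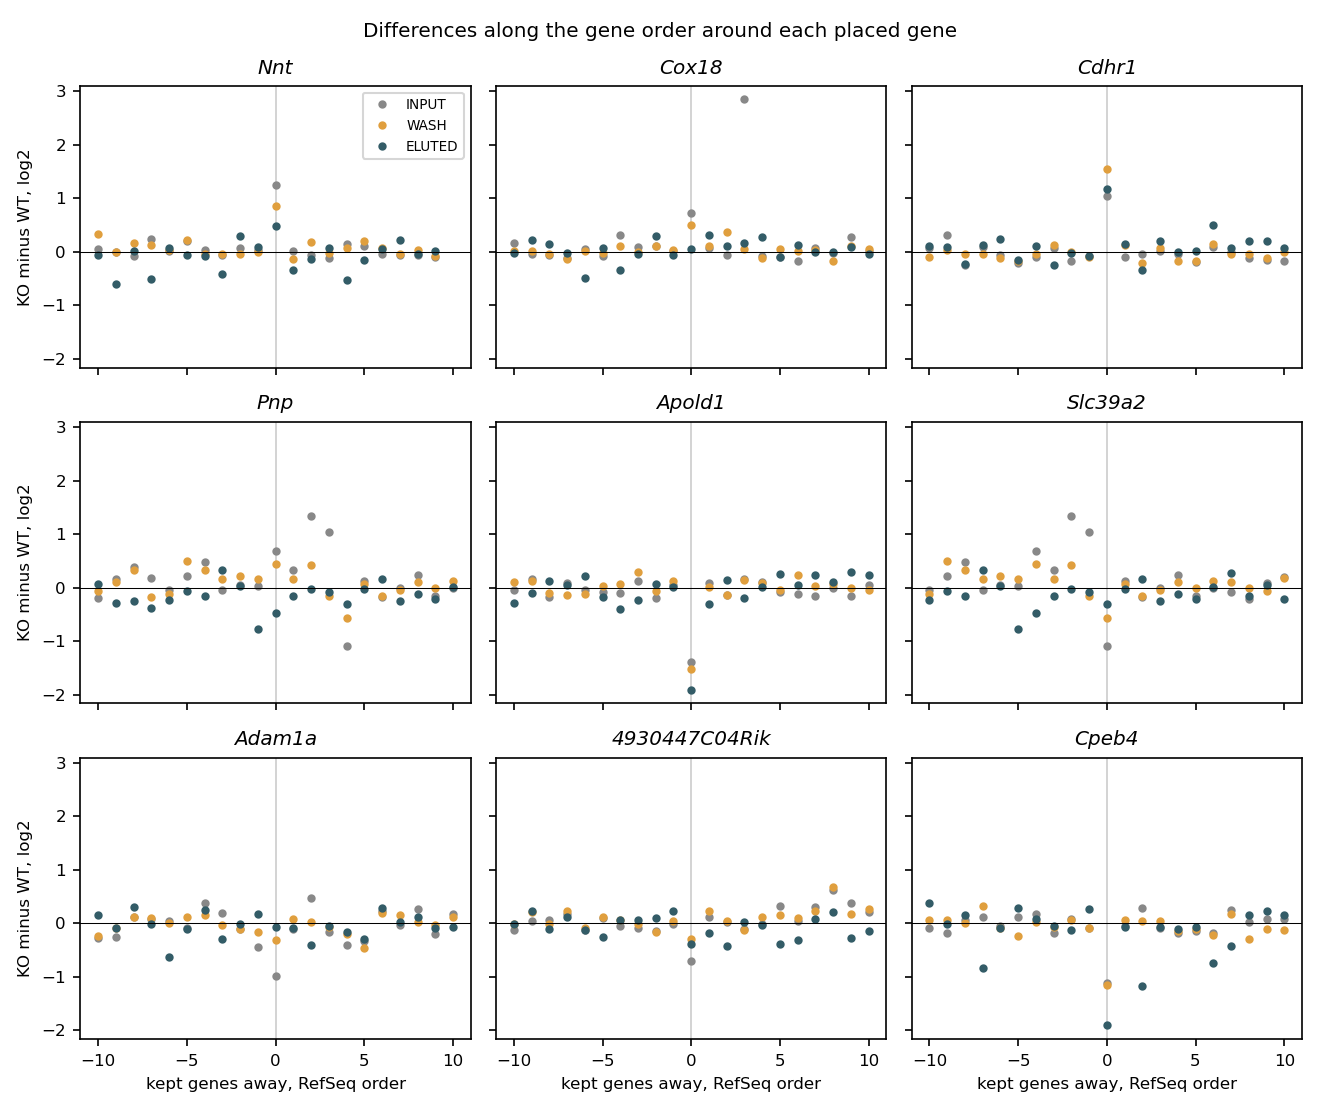
CPEB4 KO minus WT difference of log2 means for the kept genes up to 10 places on either side of each of the 8 placed genes and of Cpeb4, in RefSeq gene order (position 0 is the named gene), by fraction. Of the 142 neighbours of the 8 genes, 4 lie at 0.58 or more from 0 in INPUT, 1 in WASH and 3 in ELUTED, and of the 20 neighbours of Cpeb4 0, 0 and 3 do. The share of all genes at that distance was not counted.

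Genes with variants known between common mouse strains were listed beside Nnt. Of 9 kept others, 0 passed in WASH or ELUTED against either genotype, and their median difference against WT was 0.04 in INPUT (0.08 without CPEB4 KO replicate 1), 0.01 in WASH and -0.03 in ELUTED, beside 0.03 (0.06), 0.03 and -0.01 over all genes. The INPUT differences of the 9 ran from -0.32 to 0.47. A median over genes that differ in both directions cannot show whether strains differ. Gabra2, a subunit of the GABA-A receptor with a C57BL/6J variant known to lower its expression, is named because it had the largest difference of the list in each fraction, a choice made after its values were seen. Gabra2 in INPUT lay at 9.91 and 9.91 in WT, 9.96 and 9.99 in CPEB4 GT/+ and 10.25 and 10.50 in CPEB4 KO. In WASH its levels in WT were 9.89 and 10.10, the higher CPEB4 GT/+ animal was at 10.11, and CPEB4 KO lay at 10.40 and 10.36. In ELUTED they were 10.01 and 10.41, 10.42 and 10.17, and 10.86 and 10.89. Both CPEB4 KO animals were above the other 4 in every fraction, and its second probe set differed in the same direction (0.28, 0.30 and 0.63 against WT). Its differences against WT were 0.47 in INPUT (0.59 without CPEB4 KO replicate 1), 0.39 in WASH (SE 0.11, limma adjusted p = 0.679) and 0.66 in ELUTED (SE 0.18, adjusted p = 0.837), so it did not pass, and on the mean of both fractions it differed by 0.53 (adjusted p = 0.375). The rest of the list did not differ in one direction in all fractions by as much, as with Glo1 at 0.29, 0.02 and -0.40.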

How the data were processed

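The table deposited by the authors holds log2 values made with RMA, per the submitters' processing notes, with 45141 probe sets on 18 arrays. RNA of each fraction was amplified before labelling, per the labels' protocols. RMA sets the arrays on a common distribution, so a shift of all RNA is not seen. Gene names came from the platform's probe table, which gave 28898 probe sets 1 symbol, and from RefSeq. For a gene with several probe sets the brightest over the 18 arrays stood for it, and the lowest 25% of 17097 genes were left out (log2 5.52), leaving 12822. Genotype means of the 6 animals were fitted with limma 3.58.1 in R 4.3.3 (3 residual degrees of freedom, two-sided), and p-values were adjusted by Benjamini-Hochberg over the 12822 genes, with calls at 0.05. INPUT was not tested between genotypes, because it chose the genes. Precision is limited by 2 animals a genotype, which the labels number as replicates.

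The 9 genes, the gene lists and the naming rule (list members past a test, up to 2 per list and comparison, and the 3 genes most like each) were chosen with earlier results of these data known, and the liver list after the data were seen. The lists were the known strain variants, mitochondrial NADPH and redox, cytochrome c oxidase assembly, phosphatidylethanolamine, zinc transporter, purine salvage, ADAM, synaptonemal, endothelial, activity-induced, olfactory bulb, photoreceptor, cortical and striatal lists named in the report, with astrocyte, oligodendrocyte, microglia and blood genes. The last 4 gave 0 calls between genotypes, with median differences against WT of 0.09, -0.04, 0.09 and -0.13 in WASH and -0.08, -0.24, -0.25 and -0.21 in ELUTED. In INPUT the medians were 0.11, -0.02, 0.34 and 0.05 (0.13, -0.03, 0.23 and -0.33 without CPEB4 KO replicate 1). The fits were tested on simulated data. Animals of different genotypes share only a replicate number (correlations of deviations from -0.21 to 0.22). The arrays of one animal in different fractions were joined by the title (-0.12 to 0.35). Alternatives were other filters, probe set means, 3 scalings, a trended prior, a replicate block, INPUT in place of WASH and leaving out each animal. INPUT medians without CPEB4 KO replicate 1 and correlations without INPUT were added after the data were seen.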

Additional observations from a re-analysis of the deposited data

Results flagged for a closer look

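Pnp changed side between fractions: both CPEB4 KO animals lay above both WT animals in INPUT and in WASH and below both in ELUTED. The test of this difference, the CPEB4 KO against WT difference of the ELUTED over WASH ratio, gave -0.93 (SE 0.30, unadjusted p = 0.0149 from limma, adjusted p = 0.756). It did not pass the adjustment.

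The INPUT array of CPEB4 KO replicate 1, used in no test between genotypes, carried liver genes at a mean level of 10.3, above the 5.09 to 5.39 of the other 17 arrays, controls included. It does enter the alternative that puts INPUT in place of WASH over all animals, and that alternative was not run without it.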

How the results depend on the processing

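Among the members' tested values under all alternatives, 1133 kept direction and side of the threshold, 36 came to pass, 35 no longer passed and 38 changed sign. The larger moves in the number of members called, not all moves, were as follows. In WASH against WT, 3 became 6 with arrays aligned on hybridisation controls. Smaller moves there were the loss of Cdhr1 with no filter (limma adjusted p = 0.111) or the mean of probe sets (0.0817). Nnt came to pass there with quantile normalisation (0.0298) or a trended prior (0.00481), and leaving out 1 animal also changed which members passed. In WASH against CPEB4 GT/+, 2 became 1 with no filter, 0 with the mean of probe sets and 5 with alignment, and leaving out 1 animal gave 0 to 3. With a trended prior 4930447C04Rik came to pass there (limma adjusted p = 0.0228). In ELUTED against WT, 1 became 0 with alignment, and leaving out 1 animal gave 0 to 3. In ELUTED against CPEB4 GT/+, 0 became 1 with the mean of probe sets, quantile normalisation or median centring, and leaving out 1 animal gave 0 to 2. On the mean of both fractions, 2 became 4 against WT with centring, and leaving out 1 animal gave 0 to 4 against WT and 0 to 2 against CPEB4 GT/+. For ELUTED over WASH in all animals, 7 became 4 with INPUT in place of WASH. INPUT had no calls, since it was not tested between genotypes. Its pattern of differences of at least 0.58 held in 9 members with both CPEB4 KO animals, and in 8 with replicate 1 alone or replicate 2 alone. Over the 12822 genes it held in 73, 287 and 53 in that order. With the replicate number as a block, 2 became 1 in WASH against CPEB4 GT/+ (Apold1, adjusted p = 0.0732), and no other count changed, nor did any with the CPEB4 GT/+ ELUTED numbers crossed (7, 0 and 0), an alternative chosen after seeing the data. The cause was not tested in any of these. Alignment moved the median of all genes to 0.24 in WASH against WT, 0.14 against CPEB4 GT/+ and 0.14 on the mean of both against WT, and in ELUTED over WASH to -0.67 over all animals, -0.20 against WT and -0.24 against CPEB4 GT/+, while centring moved the ratio over all animals to 0.17.

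The following changed sign, and none of them was called in its fit unless said. With the mean of probe sets, Adam1a became 0.041 and 0.051 in ELUTED against WT and CPEB4 GT/+ and 0.060 in the ratio of ELUTED over WASH, 4930447C04Rik became -0.027 in that ratio and 0.10 in its difference against WT, and Pisd-ps3 -0.20 in the latter. With median centring, Adam1a became 0.018 and Pnp 0.025 in ELUTED against CPEB4 GT/+, Adam1a 0.26 in the ratio (called), and the ratio differences became 0.024 for 4930447C04Rik against WT and 0.011 for Pisd-ps3 against CPEB4 GT/+. With quantile normalisation, 4930447C04Rik became -0.029 in the ratio and Pisd-ps3 0.15 in its difference against CPEB4 GT/+. With alignment, Pnp became 0.11 on the mean of both fractions against WT, Pisd-ps3 -0.032 and 4930447C04Rik -0.41 in the ratio, and Pisd-ps3 -0.15 in its difference against WT. With INPUT in place of WASH, Adam1a became 0.092 and Cdhr1 0.17. Leaving out 1 animal gave ranges across 0: in WASH against WT -0.64 to 0.050 for 4930447C04Rik, and in ELUTED against WT -0.19 to 0.039 for Adam1a. In ELUTED against CPEB4 GT/+ they were -0.41 to 0.19 for Slc39a2, -0.14 to 0.088 for Adam1a, -0.0035 to 0.38 for Cox18 and -0.42 to 0.38 for Pnp. Pnp on the mean against WT gave -0.042 to 0.0016. In the ratio, 4930447C04Rik gave -0.095 to 0.24. In its difference against WT the ranges were -0.079 to 0.090 for Pisd-ps3, -0.0078 to 0.54 for Slc39a2 and -0.38 to 0.18 for 4930447C04Rik, and against CPEB4 GT/+ they were -0.53 to 0.27 for Nnt, -0.11 to 0.064 for Pisd-ps3 and -0.37 to 0.028 for Cox18. The cause was not tested.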
